A study of Homo sapiens with 4 samples.

Results

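The genes of ferritin and iron handling were examined in U937, a long-established line of human leukemia cells with monocyte features. The set was chosen by gene symbol, with earlier results of these data known. It held 10 genes: the ferritin chains FTH1 and FTL, the ferritin receptor NCOA4, the iron entry genes TFRC, SLC11A2 and SLC11A1, the exporter SLC40A1, the heme oxygenase HMOX1 and the iron sensors ACO1 and IREB2. Of these 10, 9 were among the 17656 genes of the deposited table, and SLC11A1 was not analysed here. All 9 passed the filter on low values, which kept the 14582 genes with 1 TPM or more in at least 2 libraries. TPM gives a gene's share of a library's transcripts, scaled to a fixed total after division by transcript length, so levels could be set side by side between genes as well as between libraries.

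Total RNA was sequenced in 4 libraries from this line. There were 2 libraries labelled NC, which the labels describe as untreated U937 without naming a control hairpin, and 2 labelled sh-ZNF217, described as carrying a knockdown of ZNF217, which encodes a transcription factor with zinc fingers. The study's methods describe lentiviral short hairpins as well as knockout by CRISPR, and its text uses both knockout and knockdown for the sequenced cells, where the labels speak of a knockdown. Neither the hairpin, its dose nor the time of harvest is given in the labels.

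Ferritin is a hollow shell of heavy (FTH1) and light (FTL) chains that stores iron in a form that does not damage the cell. The heavy chain oxidizes ferrous iron and the light chain helps to lay it down as mineral. Monocytes and macrophages are known for this store, since macrophages recover iron from the hemoglobin of old red cells: HMOX1 opens the heme ring, ferritin holds the iron that is freed, and ferroportin (SLC40A1) returns it to plasma. The iron regulatory proteins ACO1 (IRP1) and IREB2 (IRP2) bind stem-loops called iron-responsive elements when iron is scarce, which holds back translation of ferritin mRNA and protects the mRNA of the transferrin receptor TFRC from decay. Much of this control acts on translation and on protein, which were not measured here.

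TPM values keep no record of read number, so the depth was unknown and counting error could not be put as an interval. ZNF217 itself lay between 35.0 and 36.7 TPM in all 4 libraries (log2 fold change -0.04, limma adjusted p = 0.74), so the targeted transcript does not tell the groups apart, and every direction below is given as the labels name the groups. Nothing in the labels places the libraries of a group in separate cultures, and p-values then capture no more than how far these samples scatter, possibly for technical reasons. Of 10 monocytic markers, 9 were at 1 TPM or more in every library (MPO was below it). Of 10 erythroid markers only KLF1 had a value, between 1.10 and 3.74 TPM, and HBA1, HBA2 and HBB had none. The markers of T and NK, B and hepatocyte cells were likewise few, with 2 of 6, 3 of 5 and 1 of 4 in the table, and CD3D, CD3E, CD3G, MS4A1 and ALB without a value. Their summed levels were 69.1 to 86.3 TPM in NC against 101 to 110.3 TPM for T and NK (nearly all NKG7), 5.51 to 10.7 against 4.45 to 7.06 TPM for B, and 10.2 to 12.3 against 14.0 to 15.4 TPM for hepatocyte markers. Of these, CD2 was called higher (1.12 and 1.68 TPM in NC, 3.77 and 5.33 TPM in the other group) and PAX5 lower (3.72 and 4.13 against 1.87 and 1.79 TPM), and CD79A, at 0.426 and 0.235 against 2.29 and 1.31 TPM, was not called (limma adjusted p = 0.0659).

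Both ferritin chains and HMOX1 rose in the libraries labelled sh-ZNF217, as did SLC11A2 by a margin at the threshold. FTH1 was 2.24-fold, HMOX1 1.90-fold, FTL 1.50-fold and SLC11A2 1.43-fold higher (ratios of mean TPM). TFRC, NCOA4, SLC40A1, ACO1 and IREB2 did not pass the test. A gene was called at a limma adjusted p below 0.05 (Benjamini-Hochberg over all tested genes) with an absolute log2 fold change above 0.5, where fold changes are of log2(TPM + 1) in sh-ZNF217 minus NC and understate the change of low genes. By that rule 4 of the 9 genes were higher and 0 lower, against 6.26% higher and 2.46% lower among all tested genes, or 8.72% in either direction. The set was chosen with earlier results of these data known, so these shares describe it and do not test it. At an unadjusted p below 0.05, 5 were higher and 0 lower in limma, the added gene being TFRC, against 18.9% higher and 15.5% lower of all tested genes at that threshold. The median log2 fold change of the 9 was 0.17, and that of all tested genes was 0.02. The groups did not overlap in 8 of the 9 genes, IREB2 being the exception, and they did not overlap in 62.2% of all tested genes. The plot of changes with their intervals shows these 9 genes.

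**Figure D1:**
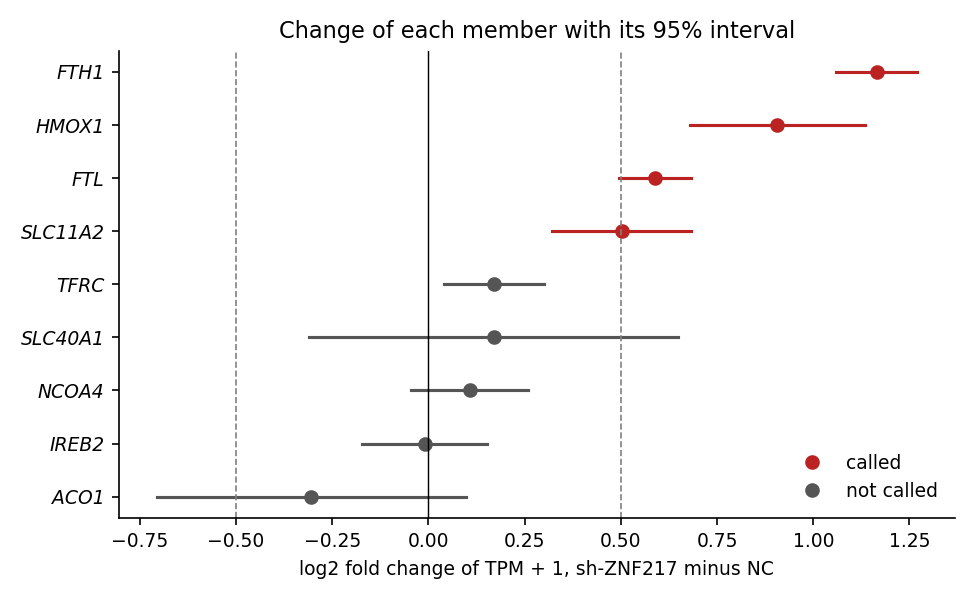
Log2 fold change of TPM + 1 in sh-ZNF217 minus NC for the 9 genes with a value, 2 libraries a group. Points are limma estimates, bars their 95% intervals, dashed lines the fold minimum of 0.5 either way. FTH1 (1.16), HMOX1 (0.91), FTL (0.59) and SLC11A2 (0.50) were called, and the bars of SLC40A1, NCOA4, IREB2 and ACO1 cross 0.

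FTH1 (ENSG00000167996), the ferritin heavy chain, is encoded on chromosome 11, minus strand (61959718 to 61967634, hg38). The NC libraries held 2940.5 and 2805 TPM of it, and the libraries labelled sh-ZNF217 held 6420.0 and 6458 TPM. The pairs stood far apart, with little spread inside each, and group means were 2873 ± 96.0 and 6439 ± 27.1 TPM (SD, n = 2 each). On the log2 scale the change was 1.16 (SE 0.04, 95% interval 1.06 to 1.27, limma adjusted p = 0.000502), higher than in 98.3% of tested genes. By level, FTH1 moved from rank 31 and 34 of all genes in the NC libraries to rank 12 in both others. Its exons overlap those of BEST1 on the plus strand, and the use of strand in counting is not given in the sources used here, so reads in the overlap cannot be told apart. BEST1, a chloride channel gene, was at 7.15 and 5.76 TPM in NC and at 21.3 and 11.4 TPM in the other group, far below FTH1 in each library.

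FTL (ENSG00000087086), the light chain, lies on the plus strand of chromosome 19 (48965309 to 48966879). It stood at 8302 and 8048 TPM in NC and reached 12207 and 12379 TPM where labelled sh-ZNF217. It was the most abundant of the 9 genes in every library, at rank 9 and 10 of all genes in NC and at rank 4 in both others. Group means were 8175 ± 179 and 12293 ± 122 TPM (SD, n = 2 each), and the rise on the log2 scale was 0.59 (SE 0.04, 95% interval 0.50 to 0.68, limma adjusted p = 0.00203).

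Together the ferritin chains took up 11242 and 10853 TPM in NC, against 18627 and 18837 TPM under the label sh-ZNF217. This was 1.13% and 1.09% of all TPM against 1.86% and 1.89%. The mean of the sum was 1.70-fold higher, at 11048 ± 275 against 18732 ± 149 TPM (SD, n = 2 each). The chains did not move in proportion. FTL exceeded FTH1 by a ratio of 2.82 and 2.87 in NC and of 1.90 and 1.92 in the other group, so that FTH1 made up 26.2% and 25.8% of ferritin transcripts against 34.5% and 34.3%. The ratio was lower in both libraries labelled sh-ZNF217 than in either NC library, but an exact two-sided permutation test of 2 against 2 cannot give a p below 0.333, and none was run. The plot of shares and ratios shows both measures by library.

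**Figure D2:**
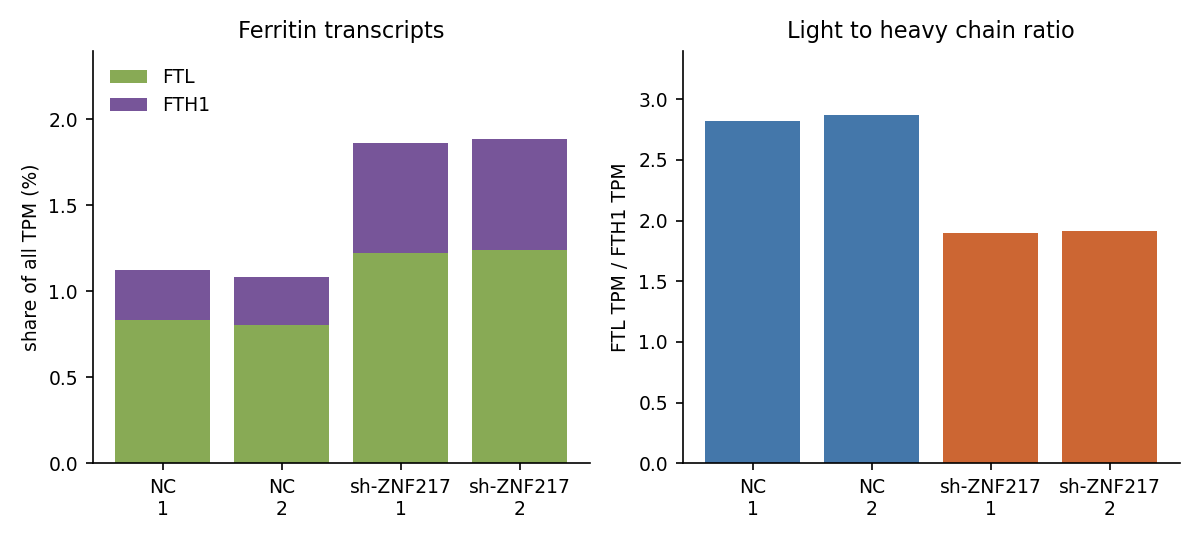
Left, share of all TPM (%) held by FTL and FTH1, stacked, in each library. Right, FTL TPM divided by FTH1 TPM. Bars are single libraries, so none carries an error bar, and the sum goes from 1.09 to 1.13% in NC to 1.86 to 1.89%, while the ratio goes from 2.82 to 2.87 down to 1.90 to 1.92.

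Some values moved along with the ferritin rise. ITGAM, CSF1R, LYZ, CD68 and PTPRC were called higher, as were 6.26% of all tested genes. The summed level of the 10 monocytic markers was 4252 and 4288 TPM in NC, against 6785 and 6687 TPM in the other group. LYZ (lysozyme) made up most of this sum, at 3263 ± 10.2 TPM in NC and 5419 ± 129 TPM in the other group (SD, n = 2 each). The sum without it was 981 and 1032 TPM against 1274 and 1359 TPM. CD33, SPI1, CD4 and FCGR1A were not called, at log2 fold changes of 0.06, 0.12, 0.22 and 0.39. For CD4 and FCGR1A the limma adjusted p was 0.032 and 0.0405, with changes short of the fold minimum. The part of that shift in the ferritin result was not tested. In bulk RNA more cells that express a gene and more of its RNA per cell cannot be told apart. Mitochondrially encoded genes held 9.98% and 10.8% of TPM in NC and 12.5% and 12.7% in the other group. With those genes left out and the rest rescaled, FTH1 and FTL were as high as before relative to NC, with log2 fold changes of 1.20 and 0.62.

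Processed pseudogenes are copies of a spliced mRNA, and ferritin has many, so reads could be split between copy and parent. The annotation names 25 copies of FTH1 and 16 of FTL, of which 9 and 1 had a value here. The FTH1 copies summed to 19.2 and 20.0 TPM in NC and 36.2 and 26.8 TPM in the other group. This was at most 0.715% of the FTH1 level in any library. The most abundant of them was FTH1P2, at 6.17 and 10.4 TPM in NC against 14.0 and 12.1 TPM. FTLP3, the only FTL copy with a value, was at 21.4 and 20.1 TPM in NC and at 27.5 and 32.2 TPM in the other group, at most 0.260% of FTL. Its log2 fold change of 0.50 fell just short of the minimum (limma adjusted p = 0.0329). Of the 6 copies tested, 0 were called in limma, beside 8.72% of all tested genes. At an unadjusted p below 0.05 there were 3 of FTH1 and 1 of FTL in limma, all higher. Of all tested genes, 18.9% were higher and 15.5% lower at that threshold. Levels of the copies are uncertain for the same reason as the sharing of reads. Both parents were still called when summed with their copies.

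NCOA4 (ENSG00000266412, chromosome 10, 46005088 to 46030623, minus strand) is the cargo receptor that carries ferritin to the lysosome, where its iron is released. It gave 131 and 138 TPM in NC, and the libraries labelled sh-ZNF217 gave 149.8 and 140.4 TPM. All 4 values lay close together, although the groups did not overlap. Their difference of 0.11 on the log2 scale (SE 0.06, 95% interval -0.04 to 0.26, limma adjusted p = 0.271) had an interval that did not reach the fold minimum.

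TFRC (ENSG00000072274, chromosome 3, 196012511 to 196082153, minus strand) encodes the transferrin receptor, by which cells take up iron bound to transferrin. Both NC libraries held 156 TPM of it, and the libraries labelled sh-ZNF217 held 179 and 172 TPM. The latter both stood above NC, by a small amount. A log2 fold change of 0.17 (SE 0.05, 95% interval 0.04 to 0.30) was not called, at a limma adjusted p of 0.0799. Set against its level, FTH1 exceeded TFRC by a ratio of 18.9 and 17.9 in NC against 35.8 and 37.5. The ratio of FTL to TFRC was 53.4 and 51.4 against 68.0 and 71.9, again without overlap of the groups. Exons of TFRC overlap those of ENSG00000286168 on the plus strand, which has no value here.

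Iron-responsive elements are what ties ferritin, TFRC and ferroportin to the iron sensors, and they are shown here because these transcripts carry them in different places. In the iron-regulated mRNAs an element in the 5′ UTR lets the sensors block translation, while elements in the 3′ UTR let them stabilize the mRNA. Protein-coding transcripts in the GENCODE 44 annotation were searched over their whole length, coding sequence included. The form sought on the transcript strand was a bulged C, 5 paired bases (G-T pairs allowed), the loop CAGTGN and the 5 bases that close the stem. FTH1 and HMOX1 were not searched. In the lines below, read 5′ to 3′ from hg38, capitals mark the bulged C and the loop.
FTL 5′ UTR, chr19:48965336-48965363, plus strand: tcttgCttcaaCAGTGTttggacggaac
SLC40A1 5′ UTR, chr2:189580661-189580688, minus strand: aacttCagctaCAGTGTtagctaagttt
TFRC 3′ UTR, chr3:196050979-196051006, minus strand: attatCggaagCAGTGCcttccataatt
TFRC 3′ UTR, chr3:196050575-196050602, minus strand: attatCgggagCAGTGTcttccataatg
TFRC 3′ UTR, chr3:196050510-196050537, minus strand: tgtatCggagaCAGTGAtctccatatgt
TFRC 3′ UTR, chr3:196050463-196050490, minus strand: attatCgggaaCAGTGTttcccataatt

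The FTL match was in its 1 coding transcript, the SLC40A1 match in 1 of 5, and the 4 TFRC matches in 10 of 11. No stretch of this form was found in NCOA4, SLC11A2, SLC11A1, ACO1 or IREB2, which says only that these letters are not in the transcripts searched. The search allowed no unpaired base within the 5 pairs and no other loop. Elements of another form, in SLC11A2 or any other gene, would have been missed. Of the canonical coding transcripts searched, 214 of 15329 held a match anywhere along their length (1.4%). These were a part of the annotation, which left out FTH1, HMOX1 and other genes. A match is a description of the sequence, and binding of the iron sensors was not measured. Of the genes with a match, FTL was called higher, and TFRC and SLC40A1 were not called.

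SLC11A2 (ENSG00000110911, chromosome 12, 50979401 to 51028566, minus strand) encodes DMT1, which moves ferrous iron across the endosomal membrane after uptake with transferrin. In NC it was at 27.8 and 27.1 TPM, and the libraries labelled sh-ZNF217 had 39.5 and 39.0 TPM. The pairs were well apart, at 27.4 ± 0.512 against 39.2 ± 0.406 TPM (mean ± SD, n = 2 each). Its log2 fold change of 0.50 (SE 0.07, 95% interval 0.32 to 0.68, limma adjusted p = 0.0131) was only just above the minimum of 0.5. This call was lost with median-of-ratios scaling (0.48), without NC replicate 2 (0.48), with plain empirical Bayes (adjusted p = 0.0538 in limma), and without sh-ZNF217 replicate 1 or 2 (adjusted p = 0.0719 and 0.0655 in limma). The direction was the same in all 13 alternatives.

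SLC40A1 (ENSG00000138449, chromosome 2, 189560590 to 189583758, minus strand) encodes ferroportin, the iron exporter. It was the least abundant of the 9 genes, with 2.52 and 2.37 TPM in NC and with 2.91 and 2.84 TPM where labelled sh-ZNF217. Both groups were near the filter of 1 TPM. The estimate of 0.17 on the log2 scale (SE 0.19, 95% interval -0.31 to 0.65, limma adjusted p = 0.582) had an interval wide enough to hold a change past the fold minimum.

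HMOX1 (ENSG00000100292, chromosome 22, 35380361 to 35394214, plus strand) encodes the inducible heme oxygenase, which frees iron, carbon monoxide and biliverdin from heme. The libraries labelled sh-ZNF217 gave 72.0 and 80.3 TPM, and NC gave 42.5 and 37.9 TPM. Both of the former were above both NC values, with more spread inside the pairs than for ferritin. From a mean of 40.2 ± 3.25 TPM it rose to 76.2 ± 5.91 TPM (SD, n = 2 each). That was a log2 fold change of 0.91 (SE 0.09, 95% interval 0.68 to 1.13, limma adjusted p = 0.0057), higher than in 96.4% of tested genes.

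Transcripts of the iron sensors were not called. IREB2 (ENSG00000136381, chromosome 15, 78437431 to 78501453, plus strand), which senses iron through its own degradation, was at 58.4 and 55.9 TPM in NC, against 55.8 and 57.7 TPM under the label sh-ZNF217. The groups overlapped, and the log2 fold change of -0.0094 (SE 0.07, 95% interval -0.17 to 0.15, limma adjusted p = 0.937) stayed within the fold minimum either way. ACO1 (ENSG00000122729, chromosome 9, 32384603 to 32454769, plus strand), which becomes an RNA-binding protein when it loses its iron-sulfur cluster, was at 20.1 and 14.7 TPM in NC and at 13.3 and 14.2 TPM in the other group. The 1 higher value, that of NC replicate 1, set most of this difference. The estimate was -0.30 on the log2 scale (SE 0.16, 95% interval -0.71 to 0.10, limma adjusted p = 0.244), and leaving out NC replicate 1 or 2 moved it to -0.09 or -0.52. IREB2 exceeded ACO1 in every library, by a ratio of 2.91 and 3.81 in NC and of 4.21 and 4.06 in the other group.

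The order of levels in NC was FTL, FTH1, TFRC, NCOA4, IREB2, HMOX1, SLC11A2, ACO1 and SLC40A1. In the libraries labelled sh-ZNF217 it was the same, except that HMOX1 stood above IREB2. In neither group did the values of neighbours in that order overlap. The nearest neighbours were TFRC and NCOA4, at a ratio of 1.16 in NC and 1.21 in the other group, and the step from FTH1 down to TFRC was the widest, at 18.4 and 36.6. The plot of levels by library shows ferritin set off from the rest.

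**Figure D3:**
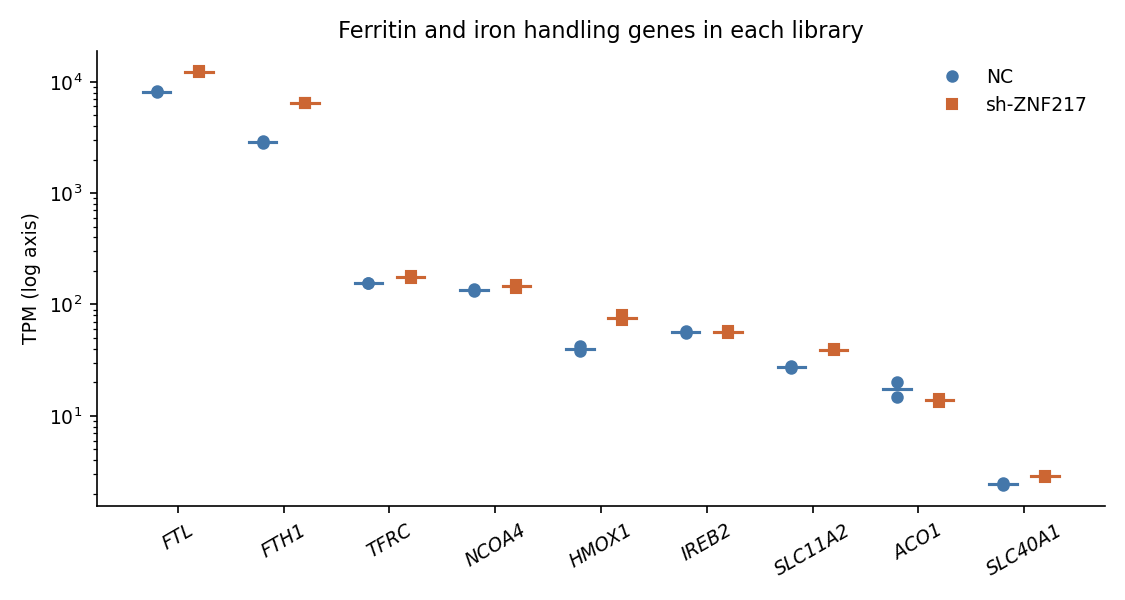
TPM of the 9 genes in each library on a log axis, ordered by mean level. Circles are NC and squares sh-ZNF217, 2 libraries each, and short lines are group means. FTL and FTH1 lie at 2805 TPM or more in every library and the other genes at 179 TPM or less. ACO1 has the widest spread inside a group, 20.1 and 14.7 TPM in NC.

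Around these genes, 110 further genes of iron and heme metabolism were read in 8 lists, 88 of which were in the table and 85 tested. Of the 85, 6 were called higher (7.06%) and 3 lower (3.53%), shares near the 6.26% and 2.46% of all tested genes, with a median log2 fold change of -0.00078 beside 0.02 for all tested genes. For transferrin uptake and iron reduction 5 of 12 genes were tested and 0 called, with 1 higher and 0 lower at an unadjusted p below 0.05 in limma (median 0.04). The ferric reductase CYBRD1 was at 25.3 and 25.2 TPM in NC and at 36.8 and 33.7 TPM in the other group, and its log2 fold change of 0.47 (limma adjusted p = 0.0214) fell short of the minimum. STEAP3, the endosomal reductase that works beside DMT1, was at 38.0 and 36.8 TPM against 26.5 and 35.2 TPM (-0.28, or -0.08 and -0.48 without sh-ZNF217 replicate 1 and 2), and MELTF, a transferrin homolog, had a log2 fold change of 0.04. For import and export outside the transferrin route 4 of 7 were tested and 0 called, with 1 higher and 1 lower at an unadjusted p below 0.05 in limma (median 0.06). Of all tested genes, 18.9% were higher and 15.5% lower at that unadjusted threshold, beside the counts of both lists. The importers SLC39A8 and SLC39A14 had log2 fold changes of 0.09 and -0.35 (limma adjusted p = 0.0258 for the latter), and the endolysosomal channel MCOLN1 of 0.04.

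Of 12 iron chaperones and genes of ferritin turnover and sensor control, 11 were tested and 0 called (median -0.08). Of all tested genes 6.26% were called higher and 2.46% lower. At an unadjusted p below 0.05 in limma, 0 of the 11 were higher and 3 lower, beside 18.9% and 15.5% of all tested genes. The chaperones PCBP1 and PCBP2, which hand iron to ferritin, had log2 fold changes of -0.14 and -0.15 (limma adjusted p = 0.127 and 0.0881). SKP1, a part of the ubiquitin ligase that degrades IREB2, varied more between replicates than between groups, at 151 and 246 TPM in NC and 258 and 171 TPM in the other group.

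All 24 genes of mitochondrial iron and iron-sulfur cluster assembly were tested. Of them 1 was called lower and 0 higher, beside 2.46% and 6.26% of all tested genes. A log2 fold change below 0 was seen in 16 of 24 (median -0.21), as in 47.5% of all tested genes. At an unadjusted p below 0.05, 2 were higher and 8 lower in limma, beside the 18.9% and 15.5% of all tested genes. NFS1, the cysteine desulfurase that supplies the sulfur, went down from 34.6 and 34.3 TPM to 22.9 and 22.5 TPM. It fell by 0.58 on the log2 scale (limma adjusted p = 0.0106), and its exons overlap those of ROMO1 and ENSG00000272897. A further 4 genes had a limma adjusted p below 0.05 short of the fold minimum, as had 1189 of the 14582 tested genes. Among the 4 was the chaperone HSPA9 (-0.27, limma adjusted p = 0.0259). The scaffold ISCU and the glutaredoxin GLRX5 were not called, at 0.12 and -0.37.

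Of 13 heme synthesis genes 12 were tested, 1 was called higher and 0 lower (median 0.02), beside 6.26% and 2.46% of all tested genes. At an unadjusted p below 0.05 in limma, 2 were higher and 2 lower, beside 18.9% and 15.5% of all tested genes. ALAS1, the first and rate-limiting enzyme outside red cells, rose to 159 and 161 TPM from 110.3 and 107 TPM in NC (0.55, limma adjusted p = 0.00528). The other abundant members, UROD and TMEM14C, had log2 fold changes of -0.19 and 0.09. For heme breakdown, heme transport and hemoglobin scavenging 9 of 15 genes were tested, 2 were called higher and 0 lower (median 0.10). In this list 4 were higher and 0 lower at an unadjusted p below 0.05 in limma. The heme transporter family gene FLVCR2 rose from 7.19 and 7.09 to 10.9 and 12.1 TPM (0.62, limma adjusted p = 0.0296), and its exons overlap those of TTLL5 and FLVCR2-AS1. HP (haptoglobin), which binds free hemoglobin, rose from 0.294 and 3.15 TPM to 51.9 and 53.6 TPM (4.53, limma adjusted p = 0.0105). The NC libraries differed for HP, and leaving out NC replicate 1 or 2 gave 3.69 or 5.38. The biliverdin reductases BLVRB and BLVRA had log2 fold changes of 0.19 (limma adjusted p = 0.0742) and -0.04, and the heme chaperone PGRMC1 of 0.0047. HMOX2, the constitutive oxygenase, was at 26.6 and 24.0 TPM in NC against 27.2 and 18.0 TPM.

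Of 11 genes of the hepcidin axis, which sets iron export for the whole body, 5 were tested, 1 was called lower and 0 higher (median -0.16). Here 0 were higher and 1 lower at an unadjusted p below 0.05 in limma. ID1, a target of BMP signals, fell from 14.4 and 12.8 TPM to 8.13 and 7.58 TPM, by 0.72 on the log2 scale (limma adjusted p = 0.02). SMAD4 and FURIN were not called, at 0.24 and -0.00078, and the hormone gene HAMP has no value here. Among 16 transcription factors of heme and iron genes, 15 were tested, 3 called higher and 1 lower (median 0.27, 12 of 15 above 0, as were 52.5% of all tested genes). In limma 8 were higher and 1 lower at an unadjusted p below 0.05. Of all tested genes 6.26% were called higher and 2.46% lower, and 18.9% and 15.5% were so at the unadjusted threshold. TFE3 and MITF, which drive lysosomal genes, rose from 19.4 and 19.2 to 33.9 and 34.1 TPM (0.78, limma adjusted p = 0.00568) and from 5.72 and 4.93 to 10.4 and 9.25 TPM (0.78, limma adjusted p = 0.0259). MAFF, a small MAF protein that pairs with NRF2 or BACH1, rose from 12.7 and 11.8 to 18.1 and 20.6 TPM (0.61, limma adjusted p = 0.0234), and its exons overlap those of PLA2G6. MYC fell from 158 and 150.4 to 80.0 and 88.2 TPM, by 0.87 on the log2 scale (limma adjusted p = 0.00339), and its exons overlap those of CASC11. NFE2L2 (NRF2), an activator of HMOX1 and ferritin genes, was at 107 and 119.7 TPM in NC against 139 and 134 TPM (0.27, limma adjusted p = 0.0563). BACH1, their heme-sensing repressor, was at 24.5 and 23.8 TPM against 35.3 and 32.3 TPM (0.47, limma adjusted p = 0.0225), short of the minimum, and USF2 had a log2 fold change of -0.08. BACH1 and HMOX2 were named after their values were seen. The calls of ALAS1, TFE3 and MYC held in all 13 alternatives, while those of NFS1, HP, FLVCR2, ID1, MAFF and MITF were each lost when at least 1 library was left out. The plot by list shows each of these genes beside the 9.

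**Figure D4:**
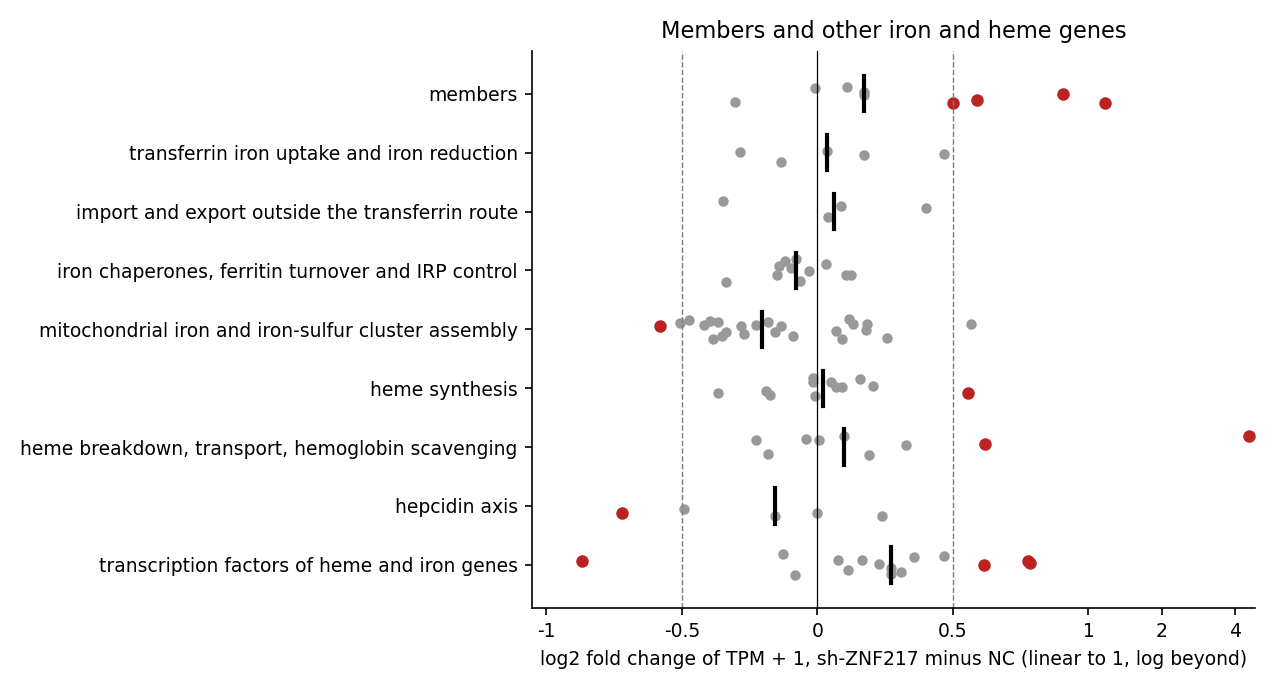
Log2 fold change of TPM + 1 in sh-ZNF217 minus NC for the 9 genes (top line, "members") and the 8 iron and heme lists. Each point is a gene, red points are called, black bars are list medians and dashed lines the minimum of 0.5, and the axis is linear to 1 and logarithmic beyond. The medians lie between -0.21 (mitochondrial list) and 0.27 (transcription factors), and HP stands apart at 4.53.

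FTH1, FTL and HMOX1 were called in each of the 13 alternative ways of processing, with log2 fold changes of 1.13 to 1.20, 0.56 to 0.62 and 0.83 to 0.99. Their limma adjusted p ranged from 6.54e-05 to 0.0327, from 0.000469 to 0.0448 and from 0.00143 to 0.0427. SLC11A2 was called in 8 of the 13. TFRC was called in none, at 0.14 to 0.21 with limma adjusted p values of 0.0501 to 0.245. The plot by setting shows the 4 called genes.

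**Figure D5:**
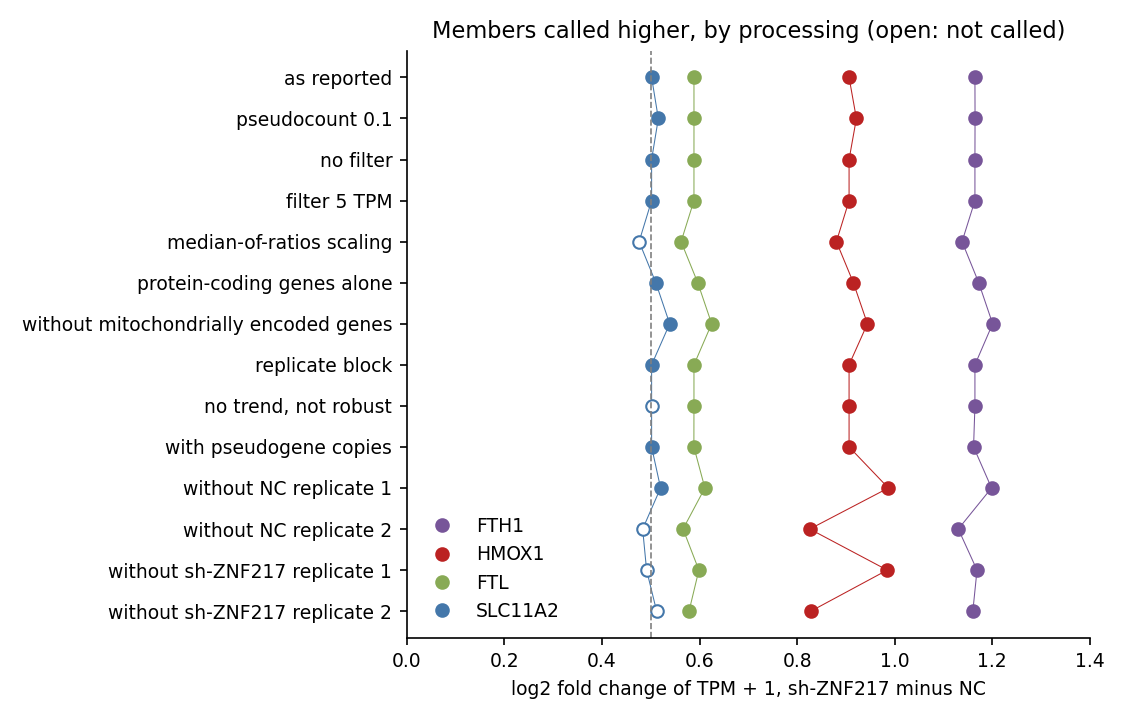
Log2 fold change of TPM + 1 in sh-ZNF217 minus NC for the 4 called genes under the reported processing (top) and 13 alternatives. Filled points are called and open points are not, and the dashed line is the fold minimum of 0.5. FTH1, HMOX1 and FTL stay to the right of the line throughout, and SLC11A2 lies on it with 5 open points.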

How the data were processed

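RNA of U937 cells was sequenced after Trizol extraction and an Illumina TruSeq library kit. Per the submitters' processing notes, reads were aligned with HISAT2 2.0.5 to hg38. Quantifier, annotation and strand setting were not given in the sources used here. In its methods the study names a depth-scaled fragment measure, not TPM. The TPM values deposited by the authors carry no unit in the header. They were taken as TPM because columns summed to 998932 to 999282 and median values did not rise with exon length. TPM records no read number, and its fixed total means that gains in abundant genes push down the remainder.

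Each column was assigned through the group mark (NC or ZNF) and replicate number in its name, other parts of which are unexplained. Symbols came from GENCODE 44, which named 16143 of 17656 identifiers. Genes at 1 TPM or more in 2 or more libraries (14582) were compared as log2(TPM + 1) with limma 3.58.1 in R 4.3.3 (group alone, trended and robust empirical Bayes, Benjamini-Hochberg over all tested genes), with calls at adjusted p under 0.05 plus a log2 fold change beyond 0.5 either way. The procedure was run on simulated data with independent normal noise on the log scale. That run checks the code, and does not show how the test behaves for replicates like these. Figures used Python 3.11.15 and matplotlib 3.10.9.

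The genes and lists were chosen with earlier results of these data known. Genes named from a list were its called genes, up to 6, and its 3 of highest mean TPM. Alternatives were a pseudocount of 0.1 TPM, no filter or one of 5 TPM, median-of-ratios scaling, protein-coding genes alone, no mitochondrially encoded genes, a replicate block, plain empirical Bayes, ferritin summed with its pseudogene copies, and leaving out each library.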

Additional observations from a re-analysis of the deposited data

How the results depend on the processing

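The count of 4 genes called higher became 3 where the SLC11A2 call was lost, and the count called lower was 0 in all 13 alternatives. For SLC11A2, median-of-ratios scaling gave 0.476, plain empirical Bayes 0.50 (limma adjusted p = 0.0538) and leaving out each library 0.483 to 0.52, all as log2 fold changes. IREB2, near 0, turned to 0.026 without mitochondrially encoded genes and ranged from -0.039 to 0.021 over single libraries left out. Over all genes, 1272 were called, against 723 with plain empirical Bayes and 430 to 1029 with a library left out (fewest without sh-ZNF217 replicate 2, then 439 without sh-ZNF217 replicate 1). A lone library was there assumed to vary like the other group. The summed ferritin mean was 11871 TPM in NC and 20236 TPM in sh-ZNF217 when protein-coding genes alone were rescaled, 12338 and 21455 TPM when mitochondrially encoded genes were left out, both with fewer genes sharing the fixed total, and 18499.6 TPM in sh-ZNF217 under median-of-ratios scaling. The causes of the other differences were not tested.

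Of the further genes, PGRMC1 was at -0.021 under median-of-ratios scaling, and FURIN was at 0.0069 among protein-coding genes and 0.035 with mitochondrially encoded genes left out. With a library left out, MELTF ranged from -0.064 to 0.14, SKP1 from -0.23 to 0.48, PGRMC1 from -0.059 to 0.068, BLVRA from -0.11 to 0.027 and FURIN from -0.038 to 0.036. Likewise NCOA4 ranged from 0.06 to 0.15, STEAP3 from -0.48 to -0.08, GLRX5 from -0.50 to -0.23, ISCU from 0.03 to 0.20, UROD from -0.28 to -0.10, USF2 from -0.16 to -0.0046 and HP from 3.69 to 5.38 (5.54 with a pseudocount of 0.1 TPM). Without either sh-ZNF217 library NFS1 (limma adjusted p = 0.0559 and 0.0583) and HP (0.0596 and 0.0554) lost their calls. FLVCR2 lost its call without any library (limma adjusted p = 0.0826 to 0.12), ID1 without any but NC replicate 2 (0.0733 to 0.0817), and MAFF (0.0666 to 0.0984) and MITF (0.0753 to 0.111) without any but NC replicate 1. Plain empirical Bayes ended the calls of FLVCR2 (limma adjusted p = 0.0502), MAFF (0.0613) and MITF (0.0514). CYBRD1 passed the minimum (0.50) without mitochondrially encoded genes. SLC40A1 was not tested at a filter of 5 TPM.

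Deviations of same-numbered libraries did not correlate (-0.00534 over 14582 genes). A shared batch that touched few genes could go unseen in this value, so it does not settle whether same-numbered libraries belong together. The reported fit left the replicate numbers out. With a replicate block 1049 genes were called, 4 genes of the set stayed higher and FLVCR2 lost its call (limma adjusted p = 0.0569).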
